A study of Mus musculus with 15 samples.

Results

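The Ets family is a group of transcription factors that share a DNA-binding domain, the ETS domain, which reads short sites built around GGAA. The genes followed here were the 10 family members Ets1, Ets2, Etv1, Etv4, Etv5, Elk3, Fli1, Erg, Elf1 and Gabpa, of 22342 protein-coding genes in all, and they were listed by name because an Ets site lies near the summits of Pax6 ChIP-seq peaks in lens cells. No value measured in the windows of these genes entered the choice, but the site was itself found at Pax6 peaks of these cells. Each gene was examined in its window, the gene body plus 50 kb on each side in mm9, for regions bound by Pax6 or by RNA polymerase II (Pol2) and for regions carrying mono-, di- or trimethylated lysine 4 of histone H3 (H3K4me1, H3K4me2, H3K4me3).

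ChIP-seq lists came from αTN4, a line of mouse lens epithelial cells that carries the SV40 T antigen, and from newborn lens of CD-1 mice at postnatal day 1. Control αTN4 cells carried a control shRNA and gave 5 lists (Pax6, Pol2, H3K4me1, H3K4me2 and H3K4me3). Pax6 KD αTN4 cells carried an shRNA against Pax6 and gave 3 lists (H3K4me1, H3K4me2 and H3K4me3), and the lens gave 1 (H3K4me2). Both kinds of αTN4 cells were infected with a lentivirus and kept under puromycin as stable populations, and the lens is a mixture of epithelium and fibres. One label field names the antibodies of the Pax6 and Pol2 libraries the other way round, and these libraries were assigned by their titles.

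Each list belongs to 1 sample and is counted here as 1 library, so no value below has a replicate error. No test between conditions was possible, and no p-value is given. Names of control H3K4me2 peaks mention both replicates, and whether that list was pooled is not stated. The lists held 504 Pax6 peaks, 17204 Pol2 peaks, 38007 control and 18417 Pax6 KD H3K4me1 islands, 66274 control, 65852 Pax6 KD and 56214 lens H3K4me2 peaks, and 14869 control and 14301 Pax6 KD H3K4me3 peaks. The depth of the libraries is unknown. The Pax6 gene itself had H3K4me3 at a start in control and Pax6 KD cells, which does not check a knockdown that acts on the transcript. Of 9 lens markers with an annotation, 5 had H3K4me2 at a start in control αTN4, against 58.2% of all genes. All 9 had it in lens, against 66.8% of all genes. The 4 without it in αTN4 were Foxe3, Cdh1, Bfsp1 and Mip.

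H3K4me3 is a mark of active gene starts, H3K4me2 is found at starts and enhancers, and H3K4me1 is broadest around enhancers. Ets factors are known as end points of growth factor signalling through the ERK kinases. Etv1, Etv4 and Etv5 form the PEA3 group and are textbook targets of FGF, the growth factor family that drives lens fibre differentiation. Fli1 and Erg are best known from endothelial and blood cells, Elk3 is a ternary complex factor that acts with serum response factor, Gabpa is the DNA-binding subunit of GABP and a regulator of many housekeeping and mitochondrial genes, and Elf1 is a widely expressed member of another branch.

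In mm9 with GENCODE vM1, the genes lay on 6 chromosomes, Ets1 at chr9:32443806-32565405 (plus strand), Ets2 at chr16:95923682-95942658 (plus strand), Etv1 at chr12:39505967-39594802 (plus strand), Etv4 at chr11:101631056-101646685 (minus strand), Etv5 at chr16:22381382-22439792 (minus strand), Elk3 at chr10:92710159-92773880 (minus strand), Fli1 at chr9:32229793-32348974 (minus strand), Erg at chr16:95580776-95808200 (minus strand), Elf1 at chr14:79881001-79982283 (plus strand) and Gabpa at chr16:84835170-84864024 (plus strand). Ets1 and Fli1 are neighbours on chromosome 9, 94.8 kb apart, and Erg and Ets2 on chromosome 16, 115 kb apart.

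Sites of the family were counted first, since they are the reason for following these genes. The words CCGGAA and CAGGAA, both containing GGAA, were searched on both strands in windows reaching 100 bp to each side of the Pax6 summits. An 8-base palindrome, the reverse complement of CCGGAA run into the word itself, holds CCGGAA on each strand. CCGGAA was present in 31 of 504 summit windows, 6.15% (95% Wilson interval 4.37 to 8.60), against 19 of 1008 windows of equal length placed 500 bp to either side, 1.88% (1.21 to 2.93). For CAGGAA the shares were 107 of 504 at summits, 21.2% (17.9 to 25.0), and 202 of 1008 at the positions 500 bp away, 20% (17.7 to 22.6). An Ets site at these summits is what the choice of genes rested on, so these shares are a description and no support for it. Mean GC content was 46.7% at summits and 44.1% at the positions 500 bp away, and the part of base composition in the difference was not tested. The intervals cover counting error only.

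For Pax6 peaks away from starts, CCGGAA was in 23 of 451 summit windows (5.10%, 3.42 to 7.54) against 14 of 902 at the side positions (1.55%, 0.927 to 2.59). At peaks within 2 kb of a start it was in 8 of 53 (15.1%, 7.85 to 27.1) and in 5 of 106 (4.72%, 2.03 to 10.6).

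To show what such a site looks like, 4 summit windows are printed from 40 bp before to 40 bp after the summit, on the plus strand of mm9 with the Ets word in capitals. They come from Pax6 peaks of high −log10 q that have a word this close to the summit and no annotated exon. Peaks of a single chromosome were left out of this choice. The first lies inside the Sgpp2 gene, in an intron, the second 399 kb from the nearest start, that of Col12a1, and the others 0.115 kb and 0.118 kb from starts of Wipi2 and Tmem167b. Their −log10 q was 55.1, 54.3, 41.8 and 36.2, and each overlapped a control H3K4me2 peak.
chr1:78335049-78335129: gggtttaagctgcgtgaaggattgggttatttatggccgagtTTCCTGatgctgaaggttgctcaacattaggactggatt
chr9:79061260-79061340: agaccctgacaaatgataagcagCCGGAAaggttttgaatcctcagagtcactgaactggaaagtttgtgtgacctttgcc
chr5:143105341-143105421: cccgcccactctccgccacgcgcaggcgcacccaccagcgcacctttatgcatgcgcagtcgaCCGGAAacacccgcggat
chr3:108365462-108365542: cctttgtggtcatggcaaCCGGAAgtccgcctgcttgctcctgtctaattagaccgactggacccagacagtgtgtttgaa

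The first window carries CAGGAA on the minus strand, and the other windows carry CCGGAA on the plus strand.

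RefSeq promoter sequences, given for GRCm38.p6 and matched letter for letter to mm9, were at hand for 7 of the 10 genes (Ets2, Etv1, Etv5, Elk3, Erg, Elf1 and Gabpa), in 12 windows. In the 250 bases before the start, an Ets word was present in 4 of the 12 windows, against 35.1% of all 32851 promoter windows. They were a window each of Elk3, Etv5, Erg and Gabpa. At Etv5 and Erg the word lay before an inner start, at 22438441 and 95680955 on chromosome 16. The windows at their 5′-most RefSeq starts held no word. In Elk3, CAGGAA began 27 bases before the start. Gabpa held a pair of words, CAGGAA beginning 178 bases before the start and CCGGAA on the other strand beginning 92 bases before it, in a stretch annotated as exon of Atp5j and Gabpa. Promoters of Elk3, Etv1 and Erg are printed on the strand of the gene, with any Ets word in capitals. They were chosen as a start with Pol2 and an Ets word, a start with Pol2 and none, and a start with neither Pol2 nor H3K4me3 in αTN4. None of these bases lies in an annotated exon.
Elk3 (chr10:92773905-92774154, minus strand): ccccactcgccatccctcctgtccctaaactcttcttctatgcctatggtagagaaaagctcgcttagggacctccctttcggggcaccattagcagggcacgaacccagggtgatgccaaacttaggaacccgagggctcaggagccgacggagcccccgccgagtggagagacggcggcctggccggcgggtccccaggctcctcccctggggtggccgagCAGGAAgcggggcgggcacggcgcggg
Etv1 (chr12:39506419-39506668, plus strand): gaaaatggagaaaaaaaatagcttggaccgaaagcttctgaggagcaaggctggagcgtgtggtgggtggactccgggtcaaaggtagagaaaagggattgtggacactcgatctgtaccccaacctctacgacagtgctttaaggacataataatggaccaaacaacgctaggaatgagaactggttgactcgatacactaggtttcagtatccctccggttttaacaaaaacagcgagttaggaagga
Erg (chr16:95808201-95808450, minus strand): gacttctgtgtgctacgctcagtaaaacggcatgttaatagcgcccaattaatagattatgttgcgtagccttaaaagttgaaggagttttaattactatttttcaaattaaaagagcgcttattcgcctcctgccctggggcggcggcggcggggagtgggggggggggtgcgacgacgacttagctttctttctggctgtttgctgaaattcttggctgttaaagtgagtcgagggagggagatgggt

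Of the 250 bases of Elk3, 234 lay under a Pol2 peak, and of those of Etv1, 73. In both αTN4 conditions H3K4me2 and H3K4me3 covered all 250 bases of Etv1, and lens H3K4me2 did too. No list covered a base of the Erg window, and the lens H3K4me2 peak nearest to this start began 577 bp inside the gene.

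No Pax6 peak of αTN4 lay in the window of any of the 10 genes, against 3.48% of all protein-coding genes with at least 1, and none lay within 2 kb of a start (0.255% of all genes). At that background share, a count of 0 in 10 does not set these genes apart. The nearest Pax6 peak was 689 kb from Elk3 and 752 kb from Etv4. For the other 8 genes it was between 3220 kb (Erg) and 35200 kb (Etv5) away. None of the 16 other Ets genes examined, from Etv2 to Spic, had a Pax6 peak in its window either.

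Starts of 8 of the 10 genes were marked in αTN4, and those of Fli1 and Erg were not. Within 2 kb of a start, Ets1, Ets2, Etv1, Etv4, Etv5, Elk3, Elf1 and Gabpa had Pol2 (48.0% of all genes), H3K4me3 in control (49.1%) and in Pax6 KD (47.8%) and H3K4me2 in control (58.2%) and in Pax6 KD (57.1%). Fli1 and Erg had none of these. No gene of the 10 had H3K4me3 at a start in control and not in Pax6 KD (3.18% of genes with it in control) or the reverse (0.466% of genes without it), and the same held for H3K4me2 (2.67% and 1.07%). In lens, H3K4me2 was present at a start of all 10 (66.8% of all genes), so none had it in control αTN4 and not in lens (3.13%).

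Pol2 was strongest at Elf1. Its peak spanned 2444 bp around the start on chromosome 14 and was enriched 38.2-fold, which ranks at percentile 98.4 among all Pol2 peaks. Ets2 followed at 19.8-fold (percentile 84.2), then Etv4 at 16.6 (76.3), Ets1 at 15.9 (74.1), Etv5 at 13.5 (65.6) and Gabpa at 12.5 (61.9). Elk3 at 9.05 (47.5) and Etv1 at 8.07 (42.4) were lowest and stood below the middle of the list. Starts of Elf1 and Wbp4 overlap, as do Gabpa and Atp5j, so at these genes Pol2 and the marks cannot be told apart from those of the neighbour. In the window of Gabpa all 5 control H3K4me2 peaks were nearer to a start of another gene than to one of Gabpa, as were 5 of 10 in that of Elf1.

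H3K4me3 gave another order. In control cells, the strongest peak at a start had a fold enrichment of 30.2 at Ets2 (percentile 83.0), 26.4 at Elk3 (75.0), 24.2 at Gabpa (69.2), 21.5 at Elf1 (61.9), 20 at Ets1 (57.8), 17.7 at Etv5 (51.3), 14.7 at Etv4 (42.4) and 9.06 at Etv1 (24.3). The 3 genes of the PEA3 group were the lowest of the 8. In Pax6 KD cells, the fold was 18.2 at Ets2, 21.2 at Elk3, 20.2 at Gabpa, 14.5 at Elf1, 11.8 at Ets1, 12.3 at Etv5, 9.35 at Etv4 and 7.63 at Etv1. It was lower than in control at all 8, as at 94.3% of genes with a peak in both, and the median over the 8 was 68.4% of control against 70.1% over all genes. The strongest peak was taken separately in each list, and at Etv4 it was not the same peak in both. Peak by peak, the control and Pax6 KD folds at Etv4 were 14.7 and 7.63 for the peak nearer the start. For the other peak they were 9.81 and 9.35. The depth of the libraries behind these folds is unknown, so the rank within each list is given as well. By percentile, Ets1 stood at 57.8 in control and 44.2 in Pax6 KD, Ets2 at 83.0 and 72.7, Etv4 at 42.4 and 32.8, Elf1 at 61.9 and 57.1 and Etv5 at 51.3 and 46.5. Elk3 stood at 75.0 and 83.0 and Gabpa at 69.2 and 79.7, higher in Pax6 KD, and Etv1 stood at 24.3 in both at this rounding. In all, 6 of 8, Etv1 included before rounding, were lower in percentile in Pax6 KD, against 58.4% of all genes.

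For H3K4me2 at starts, 5 of 8 genes had a lower fold in Pax6 KD than in control, against 37.0% of all genes. By percentile within each list, 5 of 8 stood lower in Pax6 KD, against 57.4% of all genes. For fold, Etv5 had 14.8 in control and 10.4 in Pax6 KD, 70.1% of control, and 3.02% of all genes had a lower ratio. The other PEA3 genes had 16.9 and 13.3 (Etv1) and 20.5 and 17.2 (Etv4). Ratios at Ets1 and Elk3 were 98.4% and 98.9%, and at Ets2, Elf1 and Gabpa they were 117%, 113% and 119%. Here too the strongest peak was taken separately in each list, and at Elk3 and Elf1 the ratio compares different peaks. The PEA3 genes thus had the lowest ratios of the 8, with 7.50% and 11.6% of all genes below Etv1 and Etv4. The grouping by subfamily was made after these values were seen.

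**Figure D1:**
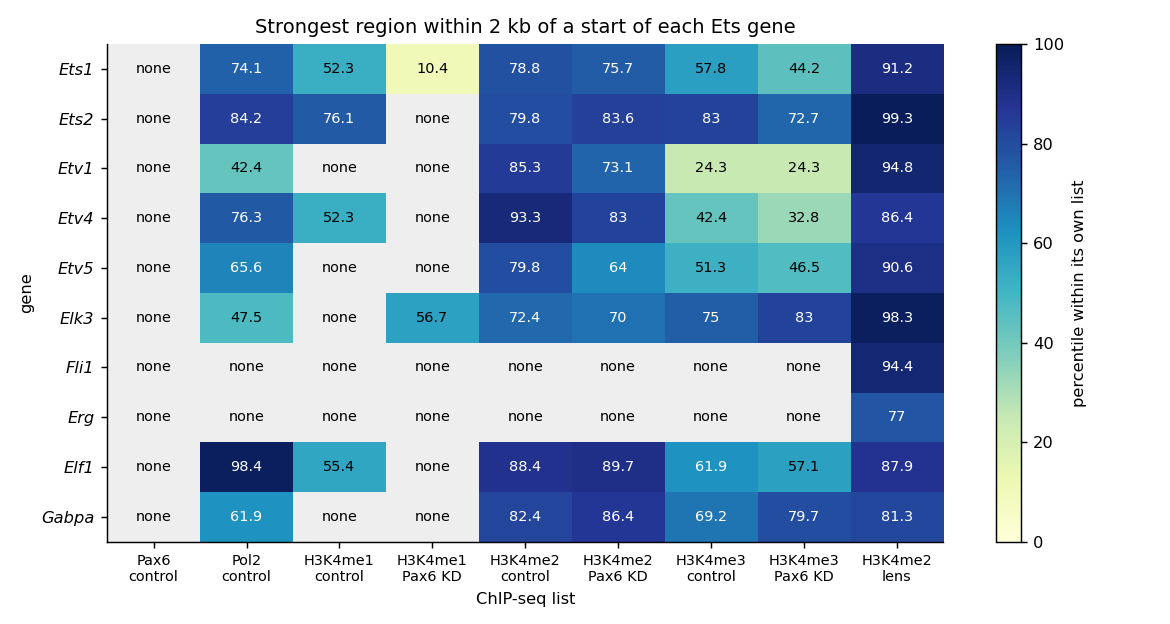
Rows are the 10 Ets genes and columns the 9 ChIP-seq lists. Each cell gives the percentile, within its own list, of the strongest region within 2 kb of a start (fold enrichment for peaks, ChIP reads for H3K4me1 islands), and grey cells marked none had no region. Fli1 and Erg are empty in all αTN4 columns, and the lens column is filled for all 10 genes.

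Several genes have more than 1 start. Counting starts within 1 kb of each other as 1 cluster gave 20 clusters, of which 8 had Pol2 within 2 kb, 1 in each marked gene. In Ets1, the cluster with Pol2 and H3K4me3 was that at 32503627 on chromosome 9. The upstream start at 32443806 had only H3K4me2 nearby, in αTN4 and lens. In Etv5, H3K4me3 within 2 kb of the inner start at 22436587 on chromosome 16 was found in control and not in Pax6 KD. In Elf1, the second cluster, at 79915481 on chromosome 14, had H3K4me2 in control and Pax6 KD cells and an H3K4me1 island in control cells, without Pol2 or H3K4me3. The third cluster of Etv1, at 39551268 on chromosome 12, had H3K4me2 in lens only.

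H3K4me2 often parted around the start. In control cells, 6 of 8 genes (Ets1, Ets2, Etv5, Elk3, Elf1 and Gabpa) had a gap of at most 1500 bp between H3K4me2 peaks within 500 bp of a start, against 58.1% of all genes with H3K4me2 there. The gap held Pol2 in each of these 6. A gap with Pol2 was thus found at 6 of 8, against 51.6% of all genes with H3K4me2 there. Over all genes, 6713 of the 7563 with a gap had Pol2 in it. The same 6 genes had a gap in Pax6 KD (65.4%). A Pol2 peak covered the whole gap of Ets1 (370 bp), Ets2 (396 bp) and Etv5 (452 bp), 86.7% of that of Elf1, 84.6% of that of Gabpa and 11.2% of that of Elk3. In lens, such a gap was found at 2 of 10 genes, Etv5 and Elf1, against 32.7% of all genes.

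In these windows, covered length differed more between control and Pax6 KD for H3K4me1 than for H3K4me2 or H3K4me3. The length under islands was 37.8 kb in control and 12.6 kb in Pax6 KD at Ets1, 33.3 and 12.4 kb at Ets2, 17.4 and 3.20 kb at Etv4, 39.8 and 19.6 kb at Elk3 and 22.4 and 18.2 kb at Elf1. Etv5 had 3 kb and Erg 5.20 kb in control and neither had an island in Pax6 KD. These lengths came from 1 island of 54 ChIP reads at Etv5 and 2 islands of 48 and 52 at Erg. The median over all control islands was 59 reads. Etv1, Fli1 and Gabpa had no island in either condition, as did 27.2% of all genes in control. Of the 7 genes with at least 1 kb in control, all but Elf1 had at most 50% of it in Pax6 KD, 6 of 7 against 52.0% of all 16179 genes measured the same way, and none had at least 2 times as much (0.841%). The median over the 7 was 33.3% of control against 48.0% over all genes. The lower quartile over all genes was 0% of control.

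The Pax6 KD list is shorter, and 1 setting moved this result. With the control list cut to as many islands as the Pax6 KD list, those with most ChIP reads, 5 genes could be measured and 2 had at most 50%, Etv4 at 25.8% and Ets2 at 41.3%, against 24.9% of all genes. Elk3 was then at 62.8% and Ets1 at 72.4%, and Elf1 was at 175%, turned in direction. How far the shorter list reflects depth and how far H3K4me1 cannot be told apart from 1 library each.

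**Figure D2:**
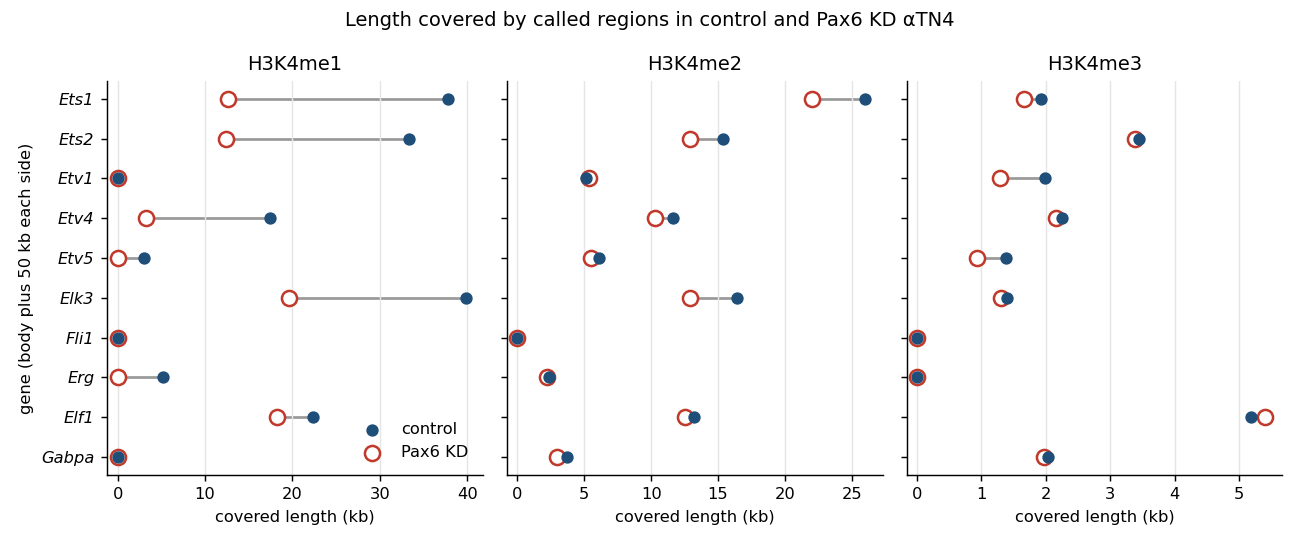
Length in kb covered by called regions in the window of each Ets gene (body plus 50 kb each side), in control (filled points) and Pax6 KD αTN4 (open points), with a panel for each mark. H3K4me1 values lie far apart at Ets1, Ets2, Etv4 and Elk3. Relative to the control length, most H3K4me2 and H3K4me3 values lie closer together. Among H3K4me3 values, those of Etv1 (1.99 and 1.29 kb) and Etv5 (1.38 and 0.942 kb) lie farthest apart in this sense. Each panel has its own scale.

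Island by island, 15 of the 43 control H3K4me1 islands in these windows overlapped a Pax6 KD island (34.9%, 22.4 to 49.8), against 46.8% of islands in windows of all genes, which lies inside the interval. With the control list cut to the length of the Pax6 KD list, 10 of 21 were kept (47.6%, 28.3 to 67.6), and the share over all genes, 73.2%, lay above the interval. Islands that share a window are not independent and each list is 1 library. The intervals cover counting error only and are no test of a difference from all genes. The reverse count was higher. All 14 Pax6 KD islands overlapped a control island (93.2% for all genes). Elf1 kept 5 of 9, Ets2 3 of 7, Elk3 3 of 8, Ets1 3 of 10, Etv4 1 of 6, Erg none of 2 and Etv5 none of 1. In the gene body 12 of 27 islands were kept (49.0% over all genes), upstream of the gene 1 of 10 (43.8%) and downstream 2 of 6 (44.5%).

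Kept islands tended to have more reads. Their median was 84 ChIP reads, against 53 for the others. Of 6 islands with 100 or more ChIP reads 5 were kept (91.4% of such islands in the whole list), and of 37 with fewer reads 10 were kept (32.9%). The largest was in the gene body of Elk3, chr10:92728801-92738800, with 232 reads in control and 137 in Pax6 KD. Next came an island of Ets1, chr9:32518201-32526200, with 213 and 175 reads (the Pax6 KD island also spans a smaller control island beside it), and one downstream of Ets2, chr16:95984201-95993200, with 194 and 122 reads and a pair of Pol2 peaks, 56.3 kb from the nearest start of Ets2. The exception was an Ets1 island at chr9:32549001-32554000, with 118 reads in control and no island in Pax6 KD. It still overlapped H3K4me2 peaks in both conditions.

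**Figure D3:**
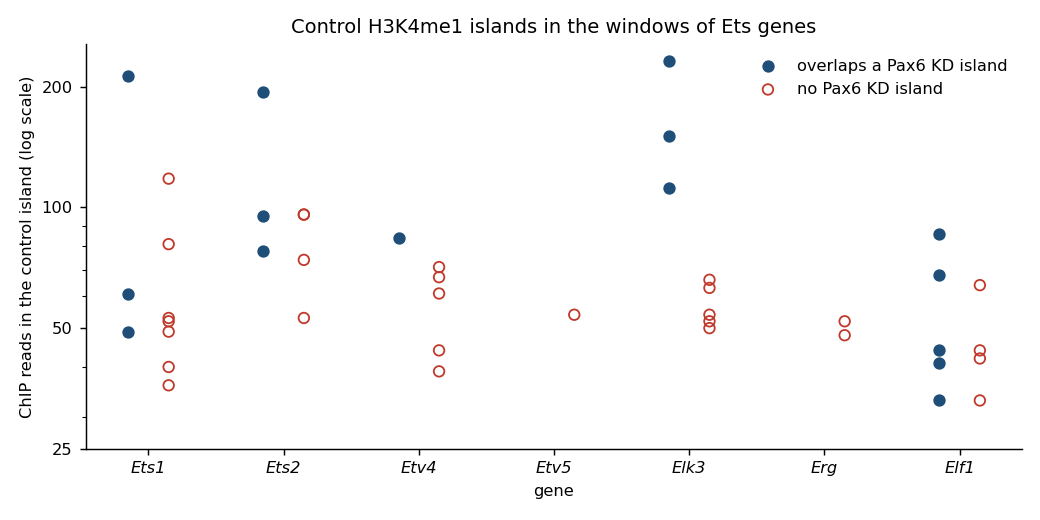
ChIP reads (log scale) of each control H3K4me1 island in the windows of the 7 Ets genes that had any. Filled points overlap a Pax6 KD island and open points do not, and points sit side by side within a gene. In Ets1, Ets2, Etv4, Elk3 and Elf1 the island with most reads is a filled point.

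Read density was compared for the kept islands. ChIP reads per kb were compared as log2 of Pax6 KD over control, centred on the median over the 17559 islands of the whole list that were kept (-0.32 before centring). This value had a median of -0.13 over the 15 islands and ran from -0.57 to 0.48, and 8 of the 15 were below 0. The quartiles of the whole list were -0.22 and 0.23, and 7 of the 15 lay between them. The lowest was an island in the body of Etv4, chr11:101638001-101640800, with 84 reads in control and 52 in Pax6 KD (30 and 16.2 per kb). The highest was in Elf1, chr14:79956001-79958600, with 41 and 74 reads (15.8 and 17.6 per kb), where the Pax6 KD island was wider.

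Most control islands without a Pax6 KD counterpart still lay under H3K4me2 in Pax6 KD. Of the 28 islands without a Pax6 KD counterpart, 23 overlapped an H3K4me2 peak in control and 22 overlapped one in Pax6 KD, against 64.5% of such islands in the whole list that overlapped one in Pax6 KD. At Etv4, 5 islands were not kept, and 4 of them, for example those 3.92 kb and 19.3 kb upstream, overlapped H3K4me2 in both conditions.

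H3K4me2 and H3K4me3 lengths were close between conditions. Summed over the windows, H3K4me2 covered 99.7 kb in control and 86.5 kb in Pax6 KD, 86.8%, and no gene of 9 reached 50% or less (1.18% of all genes) or at least 2 times control (0.00%). Single genes ran from 78.6% (Elk3) to 105% (Etv1), against a median of 88.2% over all genes. H3K4me3 covered 19.6 and 18.1 kb, 92.4%, and none of 8 genes reached 50% or less (0.713%) or at least 2 times control (0.00736%). The lowest were Etv1, with 1.99 kb in control and 1.29 kb in Pax6 KD (65.0%, with 2.93% of all genes lower), and Etv5, with 1.38 and 0.942 kb (68.1%, with 4.01% lower). Elf1 was at 104% and the others were between 86.8% (Ets1) and 97.9% (Ets2).

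Of 82 control H3K4me2 peaks 68 overlapped a Pax6 KD peak (82.9%, 73.4 to 89.5; all genes 83.4%). All peaks of Etv1, Etv5, Erg and Elf1 did so, whereas Ets1 kept 16 of 21, Etv4 8 of 11 and Gabpa 3 of 5. Of 17 H3K4me3 peaks 15 did (88.2%, 65.7 to 96.7; all genes 90.2%), and those without a counterpart were side peaks of Ets2 (fold 4.73) and Etv5 (fold 4.91). In the other direction, 81 of 86 Pax6 KD H3K4me2 peaks (94.2%; all genes 93.5%) and 15 of 16 Pax6 KD H3K4me3 peaks (93.8%; all genes 97.4%) overlapped a control peak.

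Fli1 and Erg were the genes with H3K4me2 at a start in newborn lens and not in control αTN4, 2 of 10 against 11.7% of all genes. The start of Fli1 lay under a lens H3K4me2 peak of 3465 bp, chr9:32347675-32351139, with a fold enrichment of 27.6 (percentile 94.4) and a −log10 q of 119. No region of any αTN4 list, control or Pax6 KD, lay in the 219 kb window of Fli1. Of all genes 14.8% had no control αTN4 region in the window, and 2.07% had none and had lens H3K4me2 at a start. Of the other lens peaks of this window, 1 lay 3.93 kb upstream and 2 were nearer to a start of another gene. Erg had a weaker lens peak of 852 bp, chr16:95806772-95807623, with a fold of 18.7 (percentile 77.0), near its 5′-most start. The other 4 start clusters of Erg had no region of any list within 2 kb. αTN4 had 3 H3K4me2 peaks (2.39 kb) in the 327 kb window of Erg, none shared with the 4 lens peaks.

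Markers of other cells that a dissected lens could hold were read beside this. Of 6 endothelial markers, 3 (Cdh5, Tek and Kdr) had lens H3K4me2 at a start, at percentiles of 49.0 to 86.3, and Pecam1, Tie1 and Emcn had none. Of 6 blood and macrophage markers none had it, Ptprc and Csf1r included. Of 5 mesenchymal markers 4 had it. The share over all genes was 66.8%. The part of such cells in the lens peaks of Fli1 and Erg was not tested. In control αTN4, 2 of the 6 endothelial markers (Pecam1 and Tek) had H3K4me2 at a start. So did 1 of the 6 blood and macrophage markers (Aif1) and all 5 mesenchymal markers, against 58.2% of all genes.

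**Figure D4:**
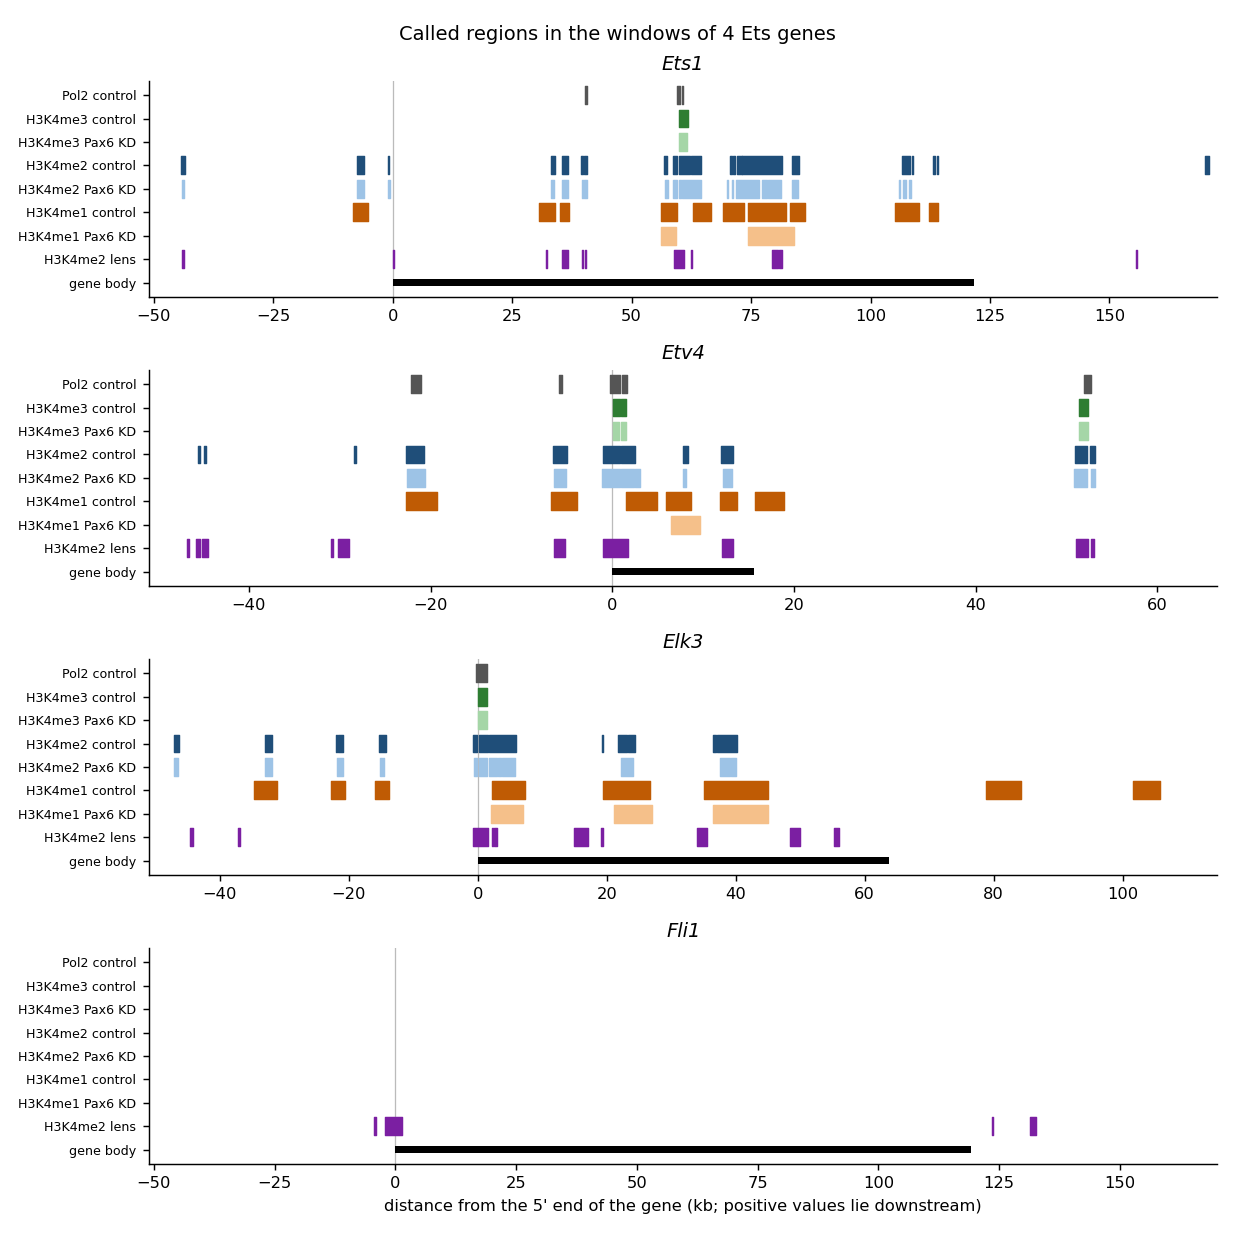
Called regions in the windows of Ets1, Etv4, Elk3 and Fli1 by distance in kb from the 5′ end of the gene, with a row for each list and the gene body as a black bar. Pol2 and H3K4me3 of Ets1 sit at its downstream start, H3K4me1 islands are fewer in Pax6 KD, and Fli1 has only lens H3K4me2.

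At the other 8 genes, lens H3K4me2 at starts ranked between percentiles 81.3 and 99.3 of its list. Its percentile was 99.3 at Ets2 (fold 33.2), 98.3 at Elk3 (31.3), 94.8 at Etv1 (27.9), 91.2 at Ets1 (25.9), 90.6 at Etv5 (25.6), 87.9 at Elf1 (24.2), 86.4 at Etv4 (23.5) and 81.3 at Gabpa (21). In control αTN4, the strongest H3K4me2 peaks of the same genes ran from percentile 72.4 (Elk3) to 93.3 (Etv4). No such rank over the starts of all genes is given, so these percentiles do not set the 8 genes apart. The lens peak of Etv1 was the widest, 6817 bp against 3894 bp in control αTN4.

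Away from starts the lists overlapped less. Of 24 control H3K4me2 peaks within 2 kb of a start of any protein-coding gene, neighbours included, 21 overlapped a lens peak (87.5%, 69.0 to 95.7; all genes 88.8%), and of 58 farther away 12 did (20.7%, 12.3 to 32.8; all genes 20.9%). Of 22 lens peaks near a start 16 overlapped an αTN4 peak (72.7%, 51.8 to 86.8; all genes 75.0%), and of 37 farther away 14 did (37.8%, 24.1 to 53.9; all genes 28.8%). The share over all genes lay inside the interval in each case. In total, 33 of 82 αTN4 peaks overlapped a lens peak (40.2%, 30.3 to 51.1; all genes 45.9%) and 30 of 59 lens peaks overlapped an αTN4 peak (50.8%, 38.4 to 63.2; all genes 48.6%). Of 86 Pax6 KD peaks 33 overlapped a lens peak (38.4%, 28.8 to 48.9; all genes 47.4%).

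Genes differed in which side held more. Lens covered at most 50% of the αTN4 length at 2 of 9 genes, Ets1 and Ets2 (19.2% of all genes), and at least 2 times that length at none (6.11%). At Ets2, αTN4 had 13 H3K4me2 peaks (15.4 kb), 2 of them shared, and lens had 2 (3.28 kb), both within 2 kb of a start. At Ets1, αTN4 had 21 (26.0 kb) and lens 11 (7.13 kb), and 8 of each overlapped. At Elk3, αTN4 had 13 (16.4 kb) and lens 10 (10.3 kb), with 4 of each shared, all in the gene body or at the start. Etv5 was the reverse, with 4 in αTN4 (6.07 kb) and 7 in lens (9.76 kb), among them a pair 1.51 and 2.60 kb from a start without an αTN4 counterpart. At Etv4, 8 of 11 αTN4 peaks and 7 of 10 lens peaks were shared, which includes the start of the neighbouring gene Dhx8.

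**Figure D5:**
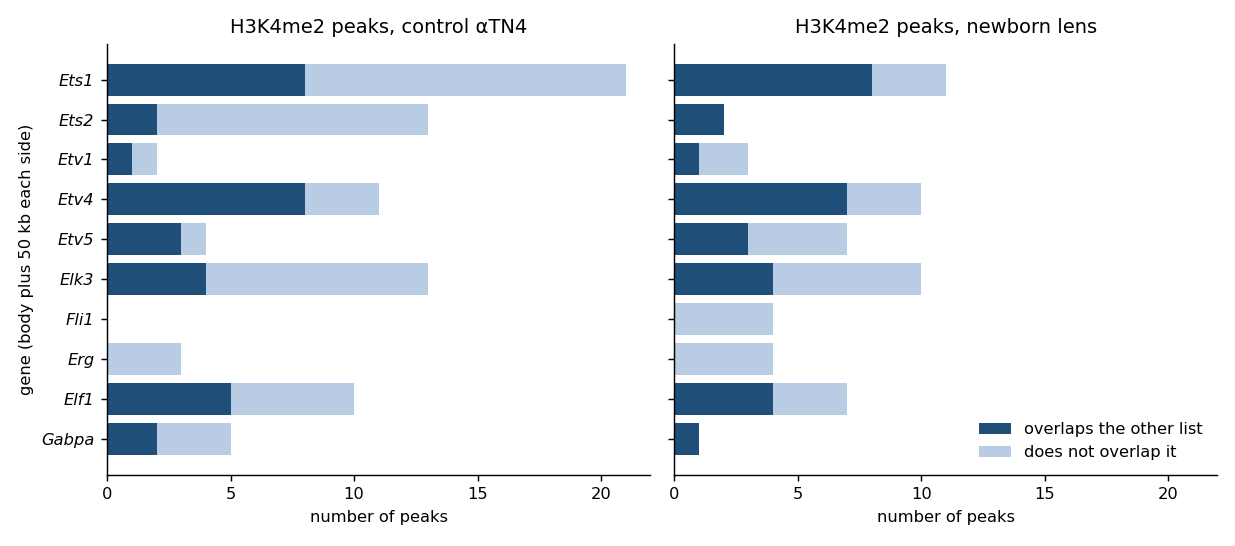
Number of H3K4me2 peaks in the window of each Ets gene in control αTN4 (left) and newborn lens (right), split by whether the peak overlaps a peak of the other list. Ets2 has 11 αTN4 peaks without a lens counterpart, and no lens peak of Fli1 or Erg overlaps an αTN4 peak.

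Among the 16 other Ets genes, 8 had Pol2 at a start (48.0% of all genes) and 10 had lens H3K4me2 there (66.8%). H3K4me3 was at a start of 7 in control and in Pax6 KD (49.1% and 47.8%). H3K4me2 was at a start of 9 in both (58.2% and 57.1%). These counts lie near the shares over all genes. H3K4me1 at a start was found at 8 in control and 4 in Pax6 KD (36.0% and 16.8% of all genes), and at the 10 genes above at 4 (Ets1, Ets2, Etv4 and Elf1) and 2 (Ets1 and Elk3). Ets2, Etv4 and Elf1 had it in control and not in Pax6 KD (56.5% of genes with it in control), and Elk3 was the reverse (1.73% of genes without it). The Elk3 call in Pax6 KD rests on an island edge, 1.85 kb from the start against 2.05 kb in control. The other Ets genes without H3K4me3 at a start were Etv2, Elf3, Elf5, Ehf, Spdef, Fev, Spi1, Spib and Spic, several of them known from epithelial, blood or neuronal cells, and none had H3K4me3 in just 1 of the conditions.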

How the data were processed

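ChIP-seq lists from 9 libraries were analysed. 4 RNA-seq and 2 input libraries were not analysed here. Reads had been mapped by Bowtie to mm9 by the authors, who called Pax6, Pol2, H3K4me2 and H3K4me3 peaks with MACS2 and H3K4me1 islands with SICER (default settings), and left out blacklisted regions. For peaks, the authors deposited the fold enrichment and the −log10 of p and q. For islands, the authors deposited a count of ChIP reads, a count of control-library reads (taken to be input), a p-value, the fold over control and the FDR. Names of control H3K4me2 peaks mention both replicates, and pooling is not stated. The libraries' depth is unknown, and callers find fewer or narrower regions in a shallower library, which bears on every count and length compared.

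Regions were used as deposited. Genes and starts were protein-coding ones of GENCODE vM1 on chromosomes 1 to 19 and X. Overlap means at least 1 bp, a start region is 2 kb each side of any transcript start, and a kept region overlaps a Pax6 KD region of its mark. Percentiles count regions of the list at or below the value. Lengths were compared where control covered at least 1 kb. All 10 genes are named, and other Ets genes where they had a Pax6 peak in the window, no control H3K4me3 at a start, or H3K4me3 in 1 condition. Genes and lists were chosen with earlier results of these data known. Spi1 was matched as Sfpi1, and Sox1 was not matched. One further list of cell type markers is not reported here. Shares have 95% Wilson intervals, and the functions were tested on simulated data. Software was pandas 2.3.3 and NumPy 2.4.6 under Python 3.11.15, SciPy 1.17.1, and matplotlib 3.10.9 for figures.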

Additional observations from a re-analysis of the deposited data

How the results depend on the processing

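Over 66 alternative values, 61 stayed close to the value reported: counts within 1.5 times, shares within their 95% interval, and the median log2 read density change within the spread of kept islands (with fold over input in place of reads per kb, chosen after seeing the data, it was again -0.13). Many of the 61 were counts of 0 in the main and the alternative setting, which add little to this tally. Counts of genes with H3K4me1 at a start moved. With only the 5′-most start they were 2 in control and 0 in Pax6 KD, and within 1 kb the Pax6 KD count was 1. With lists cut to the same number of regions, 2 genes had at most 50% of the control H3K4me1 length, and 100% of control H3K4me3 peaks were kept (14 of 14). In that setting 10 of 21 H3K4me1 islands were kept, 47.6% (28.3 to 67.6), against 73.2% for all genes, which lies above the interval. The interval treats islands that share a window as independent and is no test of a difference. Pax6 peaks were assigned to 0 of the 10 genes under each of 4 settings: windows of 10 or 100 kb, −log10 q of at least 5, and assignment to the nearest start. No paired analysis was possible because each condition has 1 library per mark and no result comes from a test. With 1 library per list, no library could be left out, and depth cannot be separated from the differences between lists.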
